A study of Canis lupus familiaris with 6 samples.

Results

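The transporter genes described here are 44 genes for the channels, pumps, carriers and water pores that kidney tubules use to move salt, acid, phosphate, glucose, organic osmolytes and water, with the vasopressin receptor and uromodulin added as segment markers. They were chosen by gene symbol from a fixed list, and all 44 were found among the 41401 symbols of the series. Transcripts were measured by RNA-seq in MDCK cells, an established epithelial line from dog kidney, in 6 libraries. The question in the study's title is how a fall in cellular magnesium leads to cell death. Wild-type cells were compared with clone 1 (D7) and clone 2 (F22), both PRL2-/- and PRL1+/-, and each of these 3 lines received control siRNA or PRL1 siRNA.

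RNA was taken 18 h after the second of the transfections, and no drug or change of medium is named in the labels. Each line gave 1 library per siRNA. Each mutant line is 1 clone, so a difference between a clone and wild type cannot be told apart from clonal variation, and the labels do not say whether the libraries of a line were separate cultures. The p-values therefore measure the spread between these samples. Values are FPKM, fragments counted per unit of transcript length and of library size, which puts genes of different length on one scale. In bulk RNA, fewer cells of a type and less RNA per cell cannot be told apart.

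Tubule transport is driven by the sodium pump, which keeps sodium low inside the cell, and each segment then uses its own set of apical carriers and channels. The proximal tubule takes up most filtered salt, glucose, phosphate and bicarbonate, the thick ascending limb and distal convoluted tubule reabsorb salt through the cotransporters NKCC2 and NCC, and the collecting duct adjusts sodium through the channel ENaC and water through aquaporins under vasopressin. The phosphatases PRL1 (gene PTP4A1) and PRL2 (gene PTP4A2) bind CNNM magnesium transporters, and magnesium is itself recovered in the ascending limb and distal convoluted tubule.

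The siRNA target PTP4A1 was lower wherever PRL1 siRNA was used and changed from 63.5 to 33.1 FPKM (wild type), 61.7 to 37.8 (clone 1) and 69.9 to 37.8 (clone 2). PTP4A2 stood at 80.4 and 69.1 FPKM in clone 1 and at 56.7 and 48.3 in clone 2, against 72.7 and 59.0 in wild type, so its RNA level does not show the PRL2-/- label. The PRL1+/- label is not visible either, since the PTP4A1 control values of the clones lay on both sides of wild type. PTP4A2 was also lower after PRL1 siRNA in each line (-0.25 ± 0.04 log2 units, limma adjusted p = 0.00572 in the knockdown fit below). The siRNA comparison is thus not a change in PTP4A1 RNA alone. The labels do not name the kind of edit, and the directions between clones and wild type rest on the labels.

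The library of clone 1 given PRL1 siRNA was the shallowest, at 0.766 of the relative depth of the wild-type control, and absolute depth is unknown. The epithelial character of the cells was plain, since the 9 general epithelial markers summed to between 1992 and 3152 FPKM and each had a mean above 1 FPKM. Fibroblast markers summed to at most 0.475 FPKM, endothelial markers to at most 1.25 FPKM and leukocyte markers to at most 3.19 FPKM, with LUM, THY1, PTPRC and CD3E listed at 0 in every library. Smooth muscle markers summed to 0.360 and 0.504 FPKM in wild type and to between 1.54 and 10.97 FPKM in the clones, mostly from ACTA2 and TAGLN, with DES listed at 0 in 2 libraries.

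Of the 44 transporter genes, 20 reached 1 FPKM in all 6 libraries, 3 did so in some libraries and 21 in none. Most genes that define a single tubule segment stayed below 1 FPKM. Of 7 proximal tubule genes, 1 (CLCN5) reached 1 FPKM, and the sodium-proton exchanger gene SLC9A3, the water channel gene AQP1, the glucose carrier genes SLC5A1 and SLC5A2 and the phosphate carrier gene SLC34A1 did not exceed 0.0895 FPKM in any library. SLC4A4, which encodes the proximal sodium bicarbonate cotransporter NBCe1, lay between 0.422 and 0.915 FPKM and was the highest of the 21 genes that stayed below the limit. Of 13 markers listed for the proximal tubule, the 7 genes above among them, 3 averaged 1 FPKM or more. They were CLCN5, CUBN at 3.89 to 6.44 FPKM and LRP2 at 0.342 to 1.78. SLC22A6, SLC22A8 and SLC7A9 were listed at 0, and SLC3A1 did not exceed 0.0876 FPKM. None of the 3 thick ascending limb genes reached 1 FPKM: SLC12A1 (NKCC2) did not exceed 0.00900 FPKM, UMOD did not exceed 0.00820 FPKM and KCNJ1 (the potassium channel ROMK) was listed at 0 throughout. Of 8 markers listed for that segment, these 3 among them, 3 averaged 1 FPKM or more: CLDN16 at 30.9 to 70.9 FPKM, EGF at 10.99 to 21.6 and CLDN10 at 0.930 to 1.96. CLDN19 did not exceed 0.0407 FPKM, and PTGER3 was listed at 0 in 5 libraries.

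Among the 4 genes assigned to the distal convoluted tubule, KCNJ16 alone reached 1 FPKM. SLC12A3, which encodes NCC, did not exceed 0.0381 FPKM, and TRPV5 and KCNJ10 were listed at 0. The wider list of 9 markers for that segment, these 4 among them, held 4 that averaged 1 FPKM or more. Besides KCNJ16 these were TRPM6 at 1.302 to 3.069 FPKM, WNK4 at 3.855 to 10 and KLHL3 at 4.985 to 7.031. PVALB and CALB1 were listed at 0. KCNJ16 encodes Kir5.1, a potassium channel subunit that works in a pair with the products of KCNJ10 or KCNJ15, and KCNJ15 did not exceed 0.00486 FPKM. Of 7 connecting tubule and collecting duct genes, AQP3 and SCNN1A reached the limit in all 6 libraries, SCNN1B and AVPR2 in some, and SCNN1G, AQP2 and AQP4 in none. In the list of 14 connecting tubule and principal cell markers, GATA3 was the only further gene to average 1 FPKM or more, at 0.880 to 2.69. Both intercalated cell genes stayed low, with SLC26A4 (pendrin) at most at 0.186 FPKM and SLC4A1 (AE1) listed at 0. Of 10 markers listed for that cell type, these 2 among them, 2 averaged 1 FPKM or more. They were CA2 at 1559 to 2974 FPKM and ATP6V1B1 at 48.7 to 59.7 FPKM, whereas FOXI1, ATP6V0A4 and ATP6V1G3 were listed at 0. CFTR did not exceed 0.0597 FPKM, SLC34A2 was listed at 0 and TRPV6 did not exceed 0.00134 FPKM. Of 19 genes that every cell uses, none was at 0 in any library.

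The expressed set was led by ATP1B1, the beta subunit of the sodium pump, with a mean of 179.5 FPKM over the 6 libraries, followed by SLC20A1, a sodium phosphate cotransporter (PiT-1), at 160 FPKM, and SLC6A6, which imports taurine, at 139 FPKM. FXYD2, the gamma subunit of the pump, which is mutated in a form of inherited magnesium loss, had a mean of 69.4 FPKM, and SLC4A7, the sodium bicarbonate cotransporter NBCn1, a mean of 54.8 FPKM. These 5 genes held between 69.9% and 72.1% of the summed FPKM of the 44 genes in each library. Their ranges overlapped in part: SLC20A1 lay between 114 and 205 FPKM and SLC6A6 between 124 and 173 FPKM, so the order of the leading genes changed from library to library. Within families, SLC20A1 was 51.5 to 93.7 times the level of its relative SLC20A2 (PiT-2), and of the ENaC subunits the alpha gene SCNN1A was 1.73 to 5.73 times the beta gene SCNN1B. The gamma gene SCNN1G was between 0.0128 and 0.116 FPKM.

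**Figure D1:**
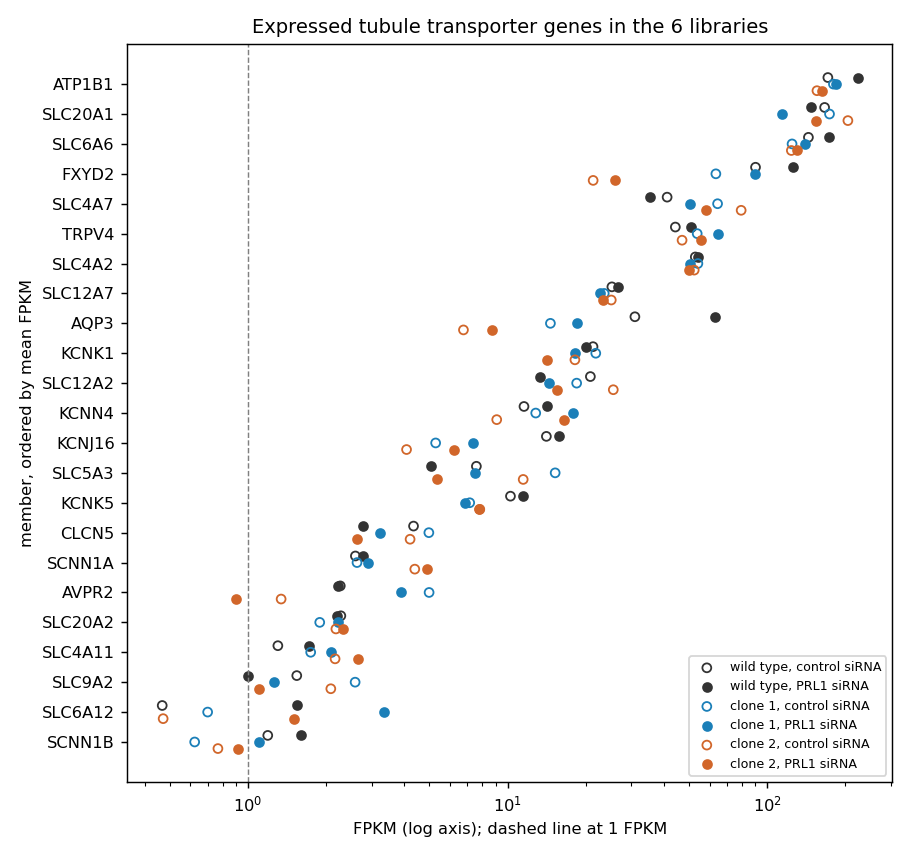
FPKM (log axis) of the 23 transporter genes averaging 1 FPKM or more, 1 point per library, open for control siRNA and filled for PRL1 siRNA, black for wild type, blue for clone 1 and orange for clone 2. AQP3, FXYD2 and KCNJ16 spread widely, with both clones below wild type, whereas SLC4A2 and SLC12A7 lie close together in all 6 libraries.

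PRL1 knockdown was then compared with control siRNA over the 3 lines, on log2(FPKM + 1) with limma and line as a factor. Among the 23 transporter genes averaging 1 FPKM or more, 7 rose, 7 fell and 9 did not pass at an adjusted p under 0.05. Over all 12125 genes tested this fit called 17.6% higher and 21.7% lower, and among the transporter genes 30.4% were called in each direction, a difference in share that was not tested. The median difference was 0.06 log2 units for the 23 genes and -0.01 for all genes. Differences in the same direction in all 3 lines were seen for 11 genes upward and 8 downward, against 31.6% and 35.8% of all genes. The 21 genes below 1 FPKM on average were not tested, and SLC6A12, 1 of the 7 that rose, passed the filter through its level after knockdown, since it was below 1 FPKM in every control library. A gene admitted in that way had to differ, so its call and its upward direction add nothing to the counts. SCNN1B, also among the 11 upward genes, passed the filter with the help of its knockdown libraries, and its direction adds nothing either.

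The calls rest on the pairing of libraries by line. The sum of the smooth muscle markers was also higher after knockdown in each line, from 0.360 to 0.504, 1.54 to 5.28 and 5.03 to 10.97 FPKM. In wild type the sum rose mostly through ACTA2, while TAGLN was slightly lower. In the clones TAGLN gave the larger part, from 1.23 to 3.50 FPKM (clone 1) and 3.36 to 6.93 (clone 2). ACTA2 there changed from 0.275 to 1.76 and from 1.60 to 3.93 FPKM. CNN1 was lower in each line but did not exceed 0.0182 FPKM in any library. The part of these markers in the calls was not tested. Without the line term 1 of the 14 calls was kept, that of CLCN5 (adjusted p = 0.0490). With wild type left out 13 of the 14 were kept, with clone 1 left out 6, and with clone 2 left out 9. With no filter on low values 2 were kept, CLCN5 and TRPV4. CLCN5, FXYD2, SLC12A2, SLC5A3, SLC6A12 and SLC9A2 passed whichever line was left out, SLC6A12 with the limit given above.

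Of the 3 carriers of organic osmolytes, SLC5A3 fell, SLC6A6 rose slightly, and SLC6A12 was higher after knockdown with the limit on its test given above. These carriers take up betaine, myo-inositol and taurine, compounds that renal cells gather to balance high salt outside, and all 3 are known to be induced by the transcription factor NFAT5. SLC6A12, the betaine carrier BGT1, changed from 0.468 to 1.54 FPKM (wild type), 0.700 to 3.35 (clone 1) and 0.472 to 1.5 (clone 2). Every knockdown library was above every control library, and the FPKM ratios were 3.30, 4.78 and 3.18. The fitted difference was 0.97 ± 0.14 log2 units (SE, n = 3 lines, limma adjusted p = 0.00510), in a table that the gene entered through its knockdown libraries. With no filter on low values its adjusted p was 0.0861.

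SLC5A3, the myo-inositol carrier SMIT1, instead changed from 7.59 to 5.07 FPKM (wild type), 15.3 to 7.51 (clone 1) and 11.5 to 5.36 (clone 2). All 3 knockdown libraries lay below all 3 control libraries, and the gene fell by 0.80 ± 0.10 (adjusted p = 0.00375). SLC6A6, the taurine carrier gene (TauT), was far more abundant and moved little, at 144 and 173 FPKM in wild type, at 125 and 139 in clone 1, and at 124 and 130 in clone 2. Here the groups overlapped, and the rise of 0.16 ± 0.05 passed (adjusted p = 0.0371) but did not with any 1 line left out (adjusted p = 0.0504 to 0.154). The level of SLC5A3 was 16.2 to 24.4 times that of SLC6A12 under control siRNA and 2.24 to 3.57 times after knockdown. This ratio shares the limit on SLC6A12 given above, so its drop is not a further result.

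Of 11 other tonicity response genes tested, 4 rose and 2 fell. NFAT5 itself rose by 0.23 ± 0.04 (adjusted p = 0.0127), while AKR1B1 (aldose reductase), one of its known targets, and HSPA4L did not pass (-0.03 and -0.07); these 3 genes are named after their values were seen. SLC38A2, an amino acid carrier, fell by 0.38 ± 0.04 (adjusted p = 0.00234). The volume-regulated anion channel genes LRRC8A and LRRC8B moved apart, at 0.23 ± 0.04 and -0.25 ± 0.06 (adjusted p = 0.0113 and 0.0211). GDPD5, an enzyme that degrades the osmolyte glycerophosphocholine and 1 of the 4 rises, had 1.03, 0.613 and 1.11 FPKM under control siRNA and 1.40, 1.04 and 1.80 after knockdown, so it passed the filter through its knockdown libraries and its call carries no weight.

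Of the 2 expressed cation chloride cotransporter genes, SLC12A2 fell and SLC12A7 did not pass. SLC12A2 encodes NKCC1, the basolateral cotransporter that loads sodium, potassium and chloride into the cell, and was at 20.8 and 13.3 FPKM in wild type, at 18.5 and 14.5 in clone 1, and at 25.5 and 15.5 in clone 2. Each knockdown library was below each control library, and the fall was 0.54 ± 0.07 (adjusted p = 0.00471). SLC12A7, the potassium chloride exporter KCC4, lay between 22.7 and 26.5 FPKM in all libraries and did not pass (-0.03 ± 0.05, adjusted p = 0.647). The ratio of SLC12A7 to SLC12A2 was 0.982 to 1.28 under control siRNA and 1.496 to 1.99 after knockdown.

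CLCN5 fell by nearly the same amount in the 3 lines. It encodes ClC-5, the endosomal chloride-proton exchanger of proximal tubule cells whose loss causes Dent disease. It changed from 4.34 to 2.79 FPKM (wild type), 4.98 to 3.23 (clone 1) and 4.21 to 2.63 (clone 2), so the knockdown libraries kept 0.641, 0.649 and 0.625 of the control level. The fitted fall was 0.51 ± 0.05 (adjusted p = 0.00234), the smallest adjusted p among the transporter genes. Of 6 other chloride channel and partner genes tested, the related exchanger gene CLCN3 fell by 0.33 ± 0.04 and the scramblase gene ANO6 fell by 0.19 ± 0.04, while CLIC4 rose by 0.19 ± 0.04 (adjusted p = 0.00385, 0.0196 and 0.0134).

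The WNK kinases act through SPAK and OSR1, which phosphorylate and switch on NKCC1 and inhibit KCC cotransporters. In a list of these kinases with their scaffold and ubiquitin ligase genes, 3 of 10 tested genes fell and none rose, where 21.7% of all genes fell and 17.6% rose. OXSR1 fell by 0.35 ± 0.04, WNK1 fell by 0.29 ± 0.04 and STK39, which encodes SPAK, fell by 0.18 ± 0.04 (adjusted p = 0.00276, 0.00537 and 0.0234). Among 5 tested genes of the KCC and potassium list, SLC12A4 (KCC1) rose by 0.38 ± 0.06 (adjusted p = 0.00852) and 4 did not pass.

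**Figure D2:**
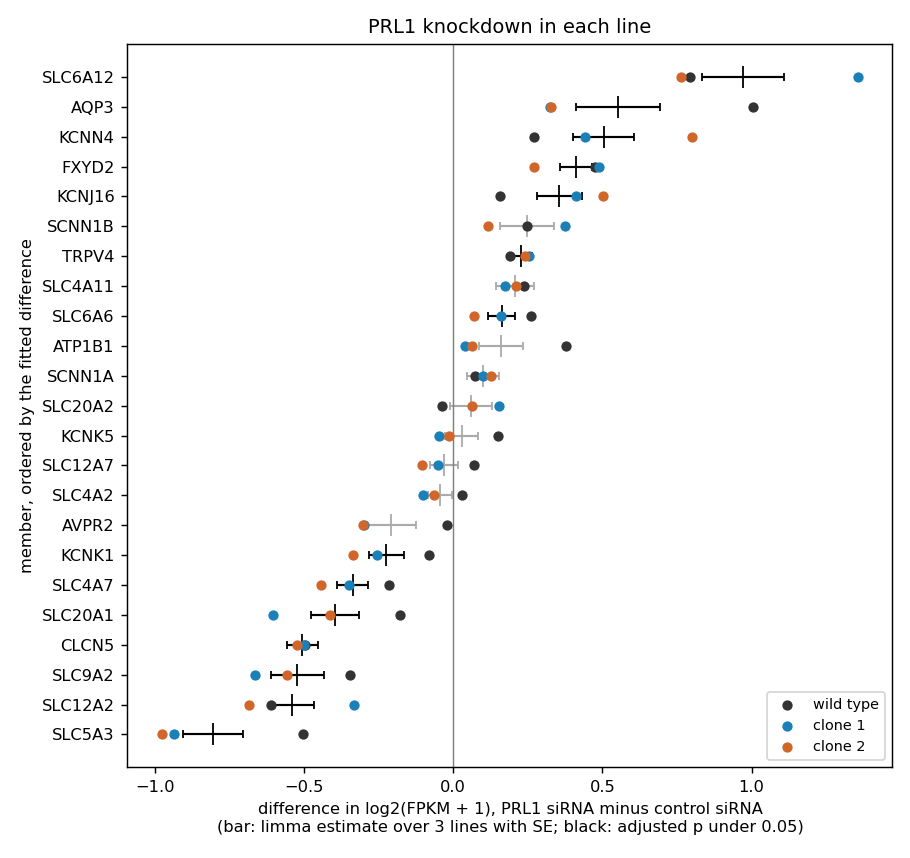
Difference in log2(FPKM + 1) between PRL1 siRNA and control siRNA for the 23 expressed transporter genes, with 1 point per line (black wild type, blue clone 1, orange clone 2) and a bar for the limma estimate with its standard error, black where the adjusted p was under 0.05. SLC6A12 at the top and SLC5A3 at the bottom are the largest estimates, 0.97 and -0.80, and the 3 points of CLCN5 nearly coincide.

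Of the 2 sodium pump genes, FXYD2 rose and ATP1B1 did not pass. FXYD2 was at 90.2 and 126 FPKM in wild type, at 63.4 and 89.5 in clone 1, and at 21.4 and 26.0 in clone 2. It rose in each line, although clone 2 after knockdown stayed below the control libraries of clone 1 and wild type. The fitted rise was 0.41 ± 0.05 (adjusted p = 0.00423). ATP1B1 was at 171 and 223 FPKM in wild type, at 180 and 185 in clone 1, and at 155 and 163 in clone 2, a difference of 0.16 ± 0.07 that did not pass (adjusted p = 0.131).

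AQP3 encodes the basolateral channel for water and glycerol of principal cells and was the one of 4 aquaporin genes that reached 1 FPKM. It was at 30.9 and 63.1 FPKM in wild type, at 14.6 and 18.6 in clone 1, and at 6.76 and 8.74 in clone 2. The ratio after knockdown was 2.04 in wild type and 1.27 and 1.29 in the clones. The rise of 0.55 ± 0.14 passed (adjusted p = 0.0285), and the control and knockdown libraries overlapped. Without clone 1 and without clone 2 the estimates were 0.67 and 0.66 and the gene did not pass (adjusted p = 0.0699 and 0.0504), whereas without wild type the estimate was 0.33 and it passed (adjusted p = 0.0137).

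Of the 4 expressed potassium channel genes, 2 rose, 1 fell and 1 did not pass. KCNN4 encodes the calcium-activated channel KCa3.1 and was at 11.6 and 14.2 FPKM in wild type, at 12.8 and 17.8 in clone 1, and at 9.09 and 16.5 in clone 2. Its lowest knockdown library was above its highest control library, and it rose by 0.50 ± 0.10 (adjusted p = 0.0139), with an adjusted p of 0.0721 without clone 1. KCNJ16 was at 14.1 and 15.8 FPKM in wild type, at 5.29 and 7.36 in clone 1, and at 4.08 and 6.20 in clone 2, a rise of 0.36 ± 0.07 (adjusted p = 0.0161) that did not pass without clone 1 (adjusted p = 0.104) or without clone 2 (0.0729).

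KCNK1, which encodes the potassium channel TWIK1, was at 21.3 and 20.1 FPKM in wild type, at 21.9 and 18.1 in clone 1, and at 18.2 and 14.2 in clone 2. The fall of 0.22 ± 0.06 was small in wild type and passed over the 3 lines (adjusted p = 0.0302) but not without clone 1 (0.155) or clone 2 (0.137). KCNK5, the acid-sensitive channel TASK2, was at 0.03 ± 0.06 and did not pass (adjusted p = 0.697), being higher in wild type and lower in the clones.

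Acid and bicarbonate carriers were mixed. SLC4A7, NBCn1, was at 41.2 and 35.3 FPKM in wild type, at 64.4 and 50.3 in clone 1, and at 79.4 and 58.1 in clone 2. The knockdown library was below its own control in each line and the fall was 0.34 ± 0.05 (adjusted p = 0.00662), with an adjusted p of 0.0550 without clone 1. SLC9A2, the sodium-proton exchanger NHE2, changed from 1.54 to 1.00 FPKM (wild type), 2.59 to 1.26 (clone 1) and 2.09 to 1.10 (clone 2). It fell by 0.52 ± 0.09 (adjusted p = 0.00883), and all knockdown libraries were below all control libraries. SLC9A2 overlaps MFSD9 in RefSeq, a gene at a mean of 5.11 FPKM, and since the strand setting of the counting is not given, fragments of the 2 genes may not have been told apart.

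The anion exchanger gene SLC4A2 (AE2) varied least of the 3 SLC4 family genes among the expressed transporter genes. It lay between 50.1 and 54.1 FPKM in all 6 libraries (-0.04 ± 0.04, adjusted p = 0.423). SLC4A11, a family member mutated in a corneal dystrophy, was higher in each line, at 1.31 and 1.71, 1.75 and 2.098, and 2.17 and 2.67 FPKM, and just missed the threshold (0.21 ± 0.07, adjusted p = 0.0526). It passed when libraries were centred on their median ratio (adjusted p = 0.0416). Among 10 other proton and bicarbonate genes tested, 3 rose and 1 fell. The one that fell, CA2, encodes the cytosolic carbonic anhydrase and was abundant at a mean of 2129 FPKM (-0.49 ± 0.04, adjusted p = 0.00161), while CA4, SLC26A11 and ATP6V1B2, a subunit of the proton pump, rose by 0.35 ± 0.06, 0.23 ± 0.07 and 0.19 ± 0.04 (adjusted p = 0.00889, 0.0475 and 0.0123).

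In phosphate uptake, SLC20A1 fell. It was at 166 and 147 FPKM in wild type, at 174 and 114 in clone 1, and at 205 and 154 in clone 2, so each line was lower after knockdown and the highest knockdown library was below the lowest control library. The fitted fall was 0.40 ± 0.08 (adjusted p = 0.0143), and the adjusted p was 0.0675 without clone 1 and 0.0627 without clone 2. SLC20A2 stayed between 1.89 and 2.33 FPKM and did not pass (0.06 ± 0.07, adjusted p = 0.519), and it overlaps SMIM19, which is at 17.8 FPKM. Of 5 phosphate and scaffold genes tested, XPR1, the phosphate exporter, fell by 0.28 ± 0.05 and EZR (ezrin) fell by 0.12 ± 0.03 (adjusted p = 0.0116 and 0.0331).

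TRPV4, a calcium-permeable channel that opens on cell swelling, was at 44.3 and 50.7 FPKM in wild type, at 53.8 and 64.4 in clone 1, and at 47.0 and 55.7 in clone 2. The ratios were 1.14 to 1.2, the groups overlapped, and the rise was 0.23 ± 0.04 (adjusted p = 0.00660), with an adjusted p of 0.0599 without clone 1. Of 3 calcium handling genes tested, ATP2B4, a plasma membrane calcium pump, rose by 0.42 ± 0.05 (adjusted p = 0.00358). Both SLC5A glucose carriers were below 1 FPKM. Of 5 tested genes of the SLC2A family, SLC2A6 and SLC2A8 rose by 0.69 ± 0.13 and 0.36 ± 0.05 and SLC2A1 fell by 0.39 ± 0.11 (adjusted p = 0.0114, 0.00455 and 0.0383).

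The ENaC subunits and the vasopressin receptor gave no call. SCNN1A was at 2.59 and 2.78 FPKM in wild type, at 2.63 and 2.89 in clone 1, and at 4.39 and 4.89 in clone 2 (0.10 ± 0.05, adjusted p = 0.196). SCNN1B was at 1.19 and 1.60, 0.624 and 1.11, and 0.767 and 0.916 FPKM, higher in each line (0.25 ± 0.09, adjusted p = 0.0770). With a mean of 1.04 FPKM it passed the filter with the help of its knockdown libraries, so its upward direction carries no weight. AVPR2, whose product raises cAMP in response to vasopressin, was at 2.27 and 2.22, 4.99 and 3.87, and 1.34 and 0.901 FPKM (-0.21 ± 0.08, adjusted p = 0.0955), and it passed in the clones alone (adjusted p = 0.0416).

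Of 14 tested genes that control ENaC, 4 rose and 3 fell, where 17.6% of all genes rose and 21.7% fell. SGK3 fell by 0.56 ± 0.06 and CNKSR3, a scaffold for the kinase SGK1, fell by 0.33 ± 0.06. The glucocorticoid receptor gene NR3C1 rose by 0.53 ± 0.11, and NEDD4L, the ubiquitin ligase that removes ENaC from the membrane, fell by 0.29 ± 0.04 (adjusted p = 0.00274, 0.0127, 0.0178 and 0.00482 in the order given). Of 11 vasopressin and cAMP genes tested, PRKACA rose by 0.24 ± 0.04 and PRKAR2B fell by 0.32 ± 0.06, the catalytic and a regulatory subunit of protein kinase A (adjusted p = 0.00642 and 0.00935). Over all 11 pathway lists 18 genes rose and 15 fell of 83 tested, with a median of 0.04 log2 units, shares close to the 17.6% and 21.7% of all genes. The lists therefore give no result beyond that rate, and their genes are described one by one.

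**Figure D3:**
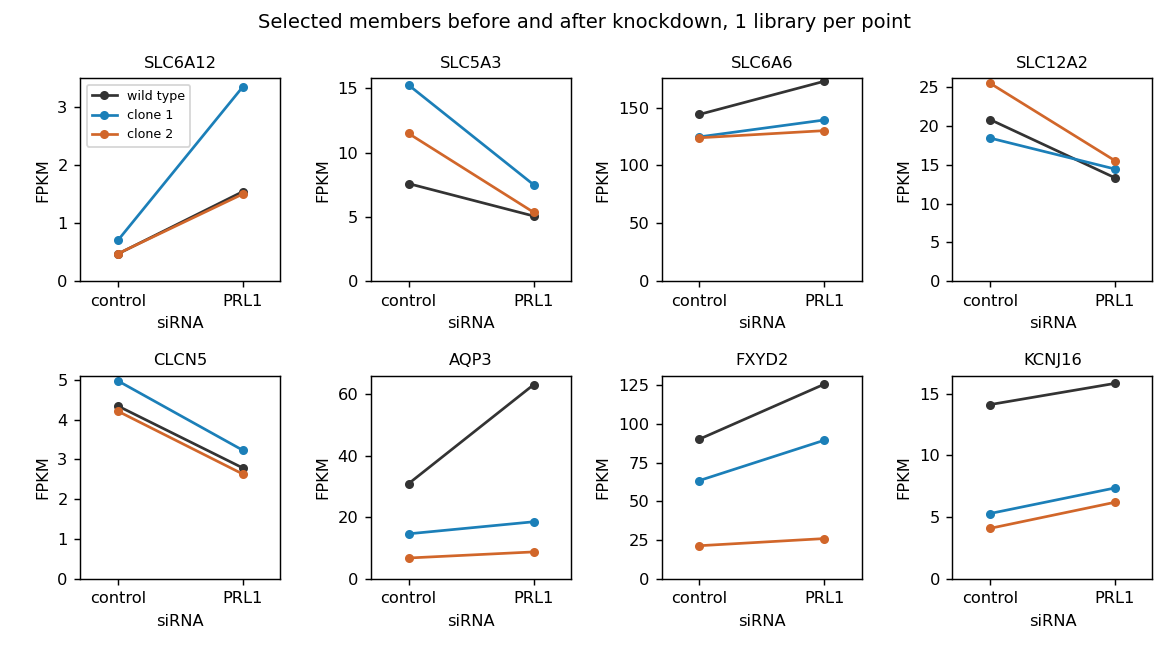
FPKM (linear axes from 0) of 8 transporter genes under control siRNA and PRL1 siRNA, 1 library per point and 1 line per cell line (black wild type, blue clone 1, orange clone 2). SLC6A12 is higher after knockdown and SLC5A3, SLC12A2 and CLCN5 fall in every line. For AQP3, FXYD2 and KCNJ16 both wild-type points lie above all points of the clones.

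Within a line there was 1 library per siRNA, so differences were counted where FPKM + 1 differed by at least 1.5-fold, with no test. In wild type 2 of 23 transporter genes were higher by that measure, SLC6A12 and AQP3, and 1 was lower, SLC12A2, against 2.09% and 1.59% of all tested genes. In clone 1 SLC6A12 was higher and SLC5A3, SLC9A2 and SLC20A1 were lower, where 2.71% and 1.89% of all genes passed. In clone 2 SLC6A12 and KCNN4 were higher and SLC5A3 and SLC12A2 were lower, with 2.14% and 2.08% of all genes. SLC6A12 was the transporter gene counted in all 3 lines, but it passed the filter through its knockdown libraries, so its place in these counts carries no weight. At 2-fold the counts were 1, 1 and 0.

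Whether the knockdown acted differently in clones and wild type was tested as an interaction. Of the 23 transporter genes none passed, where limma called 0.00825% of all genes, a single gene (TXNIP, named after its value was seen). At an unadjusted p under 0.05 there were 6 transporter genes and 1228 of the 12125 genes. AQP3 came nearest, with a knockdown effect 0.68 ± 0.07 log2 units lower in the clones (-0.68, adjusted p = 0.222). SLC5A3 differed by -0.45 ± 0.08, SLC20A1 by -0.33 ± 0.10, ATP1B1 by -0.33 ± 0.06, KCNK1 by -0.22 ± 0.07 and KCNJ16 by 0.30 ± 0.09 (adjusted p = 0.454, 0.473, 0.428, 0.482 and 0.473). This fit has 1 residual degree of freedom.

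The clones were next compared with wild type under the same siRNA. AQP3, FXYD2 and KCNJ16 were lower in both clones than in wild type, at either siRNA, and SLC4A7 was higher. No transporter gene passed the test, and no gene did: limma called 0% of genes under control siRNA and 0% under PRL1 siRNA, with 1632 and 1798 genes at an unadjusted p under 0.05, among them 5 transporter genes each time. In this comparison wild type has 1 library per siRNA and the spread comes from the 2 clones. In 7 of the 23 transporter genes all 4 clone libraries lay below both wild-type libraries and in 2 they lay above, against 10.6% and 17.5% of all genes. One of the 7, SCNN1B, averaged 1 FPKM or more through its wild-type libraries, and 3 of its 4 clone libraries were below that level, so it adds nothing to the count. The smooth muscle sum was higher in the same clone libraries, at 1.54 to 10.97 FPKM against at most 0.504 in wild type. It came mostly from ACTA2 and TAGLN. CNN1 was lower in all 4 clone libraries than in wild type but did not exceed 0.0182 FPKM in any library. The part of these markers in the differences was not tested.

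The 3 genes furthest below wild type were AQP3, FXYD2 and KCNJ16. Wild-type AQP3 was 2.89 times the mean of the clones under control siRNA (10.7 ± 5.56 FPKM, SD, n = 2) and 4.62 times their mean under PRL1 siRNA (13.6 ± 6.94), with fitted differences of -1.54 ± 0.62 and -2.22 ± 0.62 (adjusted p = 0.404 and 0.284). For FXYD2 the ratios were 2.13 and 2.18, with differences of -1.26 ± 1.01 and -1.36 ± 1.01 (adjusted p = 0.643 and 0.586) and the clones far apart. KCNJ16 differed more evenly: the clones had 4.69 ± 0.850 FPKM against 14.1 in wild type under control siRNA and 6.78 ± 0.820 against 15.8 under PRL1 siRNA. Its differences were -1.42 ± 0.18 and -1.12 ± 0.18 (adjusted p = 0.245 and 0.221). This fit takes the control and knockdown libraries of a clone as independent, although their deviations correlated (r = 0.595), and with 1 mean per line the KCNJ16 difference was -1.27 (adjusted p = 0.496).

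KCNK5, SLC6A6, SCNN1B and SLC12A7 were also below both wild-type libraries in all clone libraries, by smaller amounts. KCNK5 lay between 6.88 and 7.82 FPKM in the clones against 10.3 and 11.5 in wild type (-0.41 ± 0.11 and -0.59 ± 0.11, adjusted p = 0.313 and 0.233). SLC6A6 differed by -0.21 ± 0.07 and -0.36 ± 0.07 (adjusted p = 0.363 and 0.242), SCNN1B, admitted through wild type, by -0.37 ± 0.16 under either siRNA (0.419 and 0.384) and SLC12A7 by -0.05 ± 0.08 and -0.20 ± 0.08 (0.815 and 0.357).

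SLC4A7 and SLC4A11 were above wild type in all 4 clone libraries. For SLC4A7 the clone mean was 1.75 times wild type under control siRNA and 1.54 times under PRL1 siRNA (0.78 ± 0.17 and 0.60 ± 0.17, adjusted p = 0.283 and 0.284), and for SLC4A11 the ratios were 1.5 and 1.39 (0.36 ± 0.18 and 0.31 ± 0.18, adjusted p = 0.479 and 0.492). SLC5A3 was above wild type in both clones under control siRNA (0.73 ± 0.26, adjusted p = 0.365) and differed by 0.28 ± 0.26 after knockdown (adjusted p = 0.661).

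**Figure D4:**
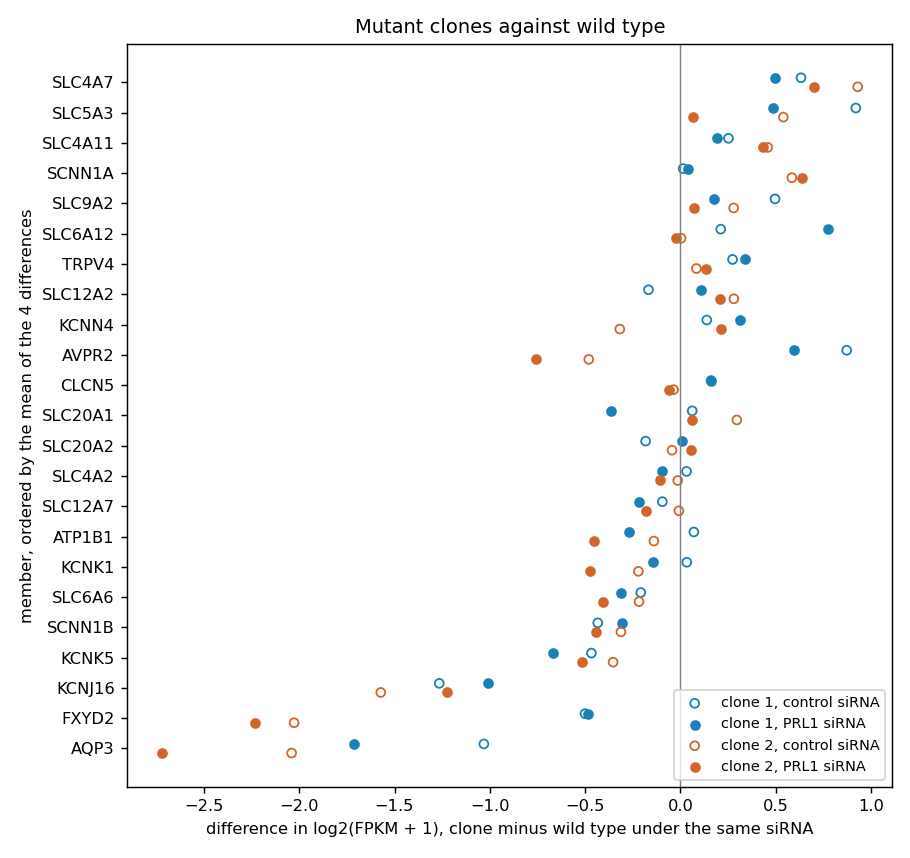
Difference in log2(FPKM + 1) between each mutant clone and wild type under the same siRNA for the 23 expressed transporter genes, open points for control siRNA and filled for PRL1 siRNA, blue for clone 1 and orange for clone 2. AQP3, FXYD2 and KCNJ16 stand at the bottom with all 4 points below 0, and AVPR2 shows the clones on opposite sides of wild type.

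The 2 clones carry the same genotype label and differed from each other in several of these genes. In the fit with line and siRNA, clone 2 differed from clone 1 in 6 of 23 transporter genes, 1 higher and 5 lower, against 6.73% and 7.79% of all genes. These p-values measure the spread between libraries once siRNA is accounted for. FXYD2 was 2.97 and 3.44 times higher in clone 1 than in clone 2 under control and PRL1 siRNA (-1.64 ± 0.07 for clone 2 minus clone 1, adjusted p = 0.000395). The ratio of FXYD2 to ATP1B1 was 0.527 and 0.563 in wild type, stood at 0.353 and 0.484 in clone 1 and was lowest, at 0.137 and 0.160, in clone 2.

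AVPR2 was 3.71 and 4.30 times higher in clone 1 than in clone 2 (-1.36 ± 0.10, adjusted p = 0.00186), with wild type in between. AQP3 was 2.16 and 2.12 times higher in clone 1 (-1.01 ± 0.17, adjusted p = 0.0202). SCNN1A went the other way and was 1.67 and 1.69 times higher in clone 2 (0.58 ± 0.07, adjusted p = 0.00628), where clone 1 was near wild type. KCNK1 (-0.29 ± 0.07, adjusted p = 0.0497) and TRPV4 (-0.20 ± 0.04, adjusted p = 0.0380) were slightly lower in clone 2. SCNN1B did not pass (-0.01 ± 0.11, adjusted p = 0.971). The 3 collecting duct genes AVPR2, AQP3 and SCNN1A were thus ordered differently across the lines. With no filter on low values none of the 6 calls was kept, and with wild type left out the clones differed in 10 of the 23 transporter genes and in 2113 of all 12125 genes. The smooth muscle sum was higher in clone 2 than in clone 1 under either siRNA, and its part was not tested.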

How the data were processed

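RNA of 6 samples was sequenced after a stranded mRNA library kit, per the labels' protocols. The deposited values are FPKM computed by the authors, with 1 value for each symbol. The submitters' processing notes name HISAT2 2.1.0, Cufflinks 2.2.1 and Cuffdiff. For genome build, annotation and strand setting of the counting: not given in the sources used here. All 44 members matched a RefSeq symbol of assembly UU_Cfam_GSD_1.0, used for names and overlaps.

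Groups came from the sample titles. Genes averaging 1 FPKM or more (12125) were fitted on log2(FPKM + 1), which understates changes of low genes, with limma 3.58.1 in R 4.3.3 (moderated variances with an intensity trend) and Benjamini-Hochberg adjustment over all genes at 0.05. The knockdown, interaction and clone 2 against clone 1 fits had line as a factor; both libraries of a clone share that clone, and their deviations from the group means correlated across genes (r = 0.595). Clones against wild type used 4 groups. The fits were tested on simulated data with independent noise in each library. Those data held no correlation between the libraries of a clone, so the simulation cannot show how that correlation affects the fits. Genes given in full were those that passed any fit, changed 1.5-fold in all lines or ranked in the top 5, with their family; pathway genes, up to 4 per list by size among those that passed. One pathway result is not reported here.

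Relative depth came from low values, where 33.5% to 36.4% of ratios between libraries lay near ratios of small whole numbers (tolerance 0.01, log2); counts were not rebuilt. Members and lists were chosen with earlier results of these data known. Sequences were not used here.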

Additional observations from a re-analysis of the deposited data

How the results depend on the processing

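The 14 knockdown calls depended on the line term and on the filter more than on scaling. Members called numbered 2 (1179 genes) with no filter, 1 (416 genes) with no replicate block, and 0 (0 genes) in the clones alone with no replicate block; paired by clone, the clones alone gave 14 members and 4037 genes. With 1 line left out, 6 to 14 members and 1709 to 4037 genes were called. The uncalled knockdown differences changed sign for 2 members: KCNK5, at -0.0313 in the clones alone with or without replicate block and between -0.0313 and 0.0688 with 1 line left out, and SLC12A7, between -0.0788 and 0.0088. A pseudocount of 0.1 left all 14 calls in place.

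Between clones and wild type, with no filter 165 genes were called under control siRNA and 240 under PRL1 siRNA, none of them members, and 4 genes with no intensity trend under control siRNA. The interaction called 2 genes with a pseudocount of 0.1, 3 at a mean of at least 5 FPKM, 0 with no filter, 7 with no intensity trend and 0 with no replicate block. Clone 2 against clone 1 gave 4 genes and 0 members with no filter and 10 members without wild type; the SCNN1B value was 0.0057 with a pseudocount of 0.1 and 0.0193 with median centring. Within lines, at 2-fold 1, 1 and 0 members were counted in wild type, clone 1 and clone 2; clone 1 gave 2 at a mean of at least 5 FPKM and clone 2 gave 7 with a pseudocount of 0.1. Leaving out a clone from the interaction was not run, as no residual degrees of freedom remain. Where a count moved, the cause was not tested.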
